A study of Mus musculus with 4 samples.

Results

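Mitochondrial ribosomal protein genes were followed in hepatocytes of mice labelled as liver-specific knockouts of Pnpt1. The members are all genes whose symbol starts with Mrpl (large subunit) or Mrps (small subunit) followed by a number, found through the RefSeq accession that the scanner files give for a probe. They are 76 genes of the 16358 named on the array, 47 of the large and 29 of the small subunit, and are read by 110 of its 41174 probes. Pnpt1 encodes PNPase, an exoribonuclease found mainly in mitochondria. The question posed by the design is how RNA levels differ between knockout (HepKO) and wild-type (WT) hepatocytes.

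The mitochondrial ribosome is built in the mitochondrial matrix from ribosomal RNAs transcribed from mitochondrial DNA and from proteins that are all encoded in the nucleus, made in the cytosol and imported. Its small subunit binds the messenger RNA and decodes it, and its large subunit joins the amino acids and releases the growing chain through an exit tunnel. It translates the few messenger RNAs of the mitochondrial genome, whose products are core subunits of the respiratory chain and of ATP synthase, on which the liver, an organ rich in mitochondria, depends. Many of its proteins descend from bacterial ribosomal proteins, and others are specific to mitochondria.

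RNA from 4 C57BL/6J mice was compared on 4 two-colour arrays. Every mouse carried floxed Pnpt1 alleles (Pnpt1 fl/fl, from a breeding scheme with neo-fl alleles), and the HepKO mice carried in addition 1 copy of Albumin-Cre, which is active in hepatocytes and leaves Pnpt1 of other liver cells in place. A HepKO and a WT mouse labelled male, aged 12.29 weeks by their characteristics, formed 1 pair, and a HepKO and a WT mouse labelled female, aged 4.29 weeks, formed the other, each matched for litter. Cells came from livers perfused with collagenase, and no purification of hepatocytes beyond washing is described. Each pair was hybridised on 2 arrays of opposite dye orientation, so the 2 arrays of a pair share their RNA and n = 2 pairs. The p-values therefore rest on 2 pairs, which also differ in age and slide. In the fit over named genes a variance has 1 residual degree of freedom and 3.11 borrowed from other genes. The p-values and SEs thus do not measure a gene's own spread between the pairs alone. Ratios are log2 of HepKO over WT, errors are the SE of limma's moderated model, and the values of the 4 arrays are always given in the order male pair with HepKO in Cy5, male pair with HepKO in Cy3, female pair with HepKO in Cy5 and female pair with HepKO in Cy3.

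The arrays held the signal of all members. On each array 48.2% to 58.6% of probes were well above background, and all 76 members were well above background in HepKO and in WT on all 4 arrays. The sex-linked genes ran against the labelled sex: both genotypes had Xist above background in the male pair alone and Ddx3y, Eif2s3y and Kdm5d in the female pair alone, while Zfy2 did not separate the pairs. Each ratio is taken within a pair, so HepKO over WT does not depend on that label, but "male" and "female" below are names of pairs only. Of the 2 probes for the targeted gene Pnpt1, 1 read 0.31, 0.06, -0.38 and -0.38 (mean -0.10 ± 0.19, limma adjusted p = 0.747) and the other -0.67, -0.32, -0.50 and -0.60 (mean -0.52 ± 0.13, limma adjusted p = 0.0803). Neither passed the threshold over all kept probes, and the place of the probes relative to the floxed part is not known here. Among the measured marker genes of other liver cells, 9 of 11 for macrophages, 6 of 10 for endothelium, 6 of 11 for lymphocytes, 5 of 10 for stellate cells, 2 of 6 for neutrophils (S100a8, S100a9), 1 of 4 for cholangiocytes (Spp1) and 1 of 3 for erythroid cells (Hba-a1, with Alas2 lower) were higher in HepKO at an adjusted p under 0.05. By the same measure 11.9% of all named genes were higher. Some of these markers were above background in WT on no array and were kept through HepKO alone. They were 3 of the lymphocyte markers and 1 each of the macrophage, endothelial, neutrophil, cholangiocyte and erythroid markers. The summed intensity of the macrophage list was 56039 to 58914 in HepKO and 6944 to 15959 in WT. The median ratio of the 11 macrophage genes was 1.61. Of these 11 genes, 1 went the other way. It was below 0 on all 4 arrays, with a mean of -0.75, and did not pass. The 10 measured hepatocyte markers were above background in HepKO and WT on all 4 arrays. Their median was 0.16, with Hpx higher and Apoa2 lower. By pair the median was -0.11 (male) and 0.25 (female), and by array 0.18, -0.41, 0.67 and -0.09. In RNA of a cell pellet, fewer cells of a type and less RNA per cell cannot be told apart, and the part of other cells in the members' ratios was not tested.

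Of the 76 members, 1 passed an adjusted p of 0.05 in limma over the 11505 named genes measured: Mrpl34, lower in HepKO. None was higher. Over all named genes 15.6% passed, 11.9% higher and 3.69% lower. At an unadjusted p under 0.05 the test marked 11 members (14.5%; Mrpl4, Mrpl18, Mrpl34, Mrpl35, Mrpl39, Mrpl49, Mrps6, Mrps14, Mrps21, Mrps24 and Mrps27), against 36.3% of all named genes. The members' ratios lay in a narrow band around 0. Their median was -0.07, against 0.08 for all named genes, and the median size of the change was 0.18 against 0.32. The 95% interval lay within a 2-fold change either way for 71 members (93.4%; 67.4% of all named genes) and within 1.5-fold for 38 of 76 (26.9% of all named genes). The exceptions at 2-fold were Mrpl34, Mrps24, Mrps21, Mrpl49 and Mrpl42. The last of these falls outside the rule for named genes and is named after its values were seen. Narrow intervals were not particular to the members. Within 2-fold lay 91.2% of 80 cytosolic ribosomal protein genes and 89.9% of 79 oxidative phosphorylation subunits, and within 1.5-fold 37.5% and 35.4%.

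**Figure D1:**
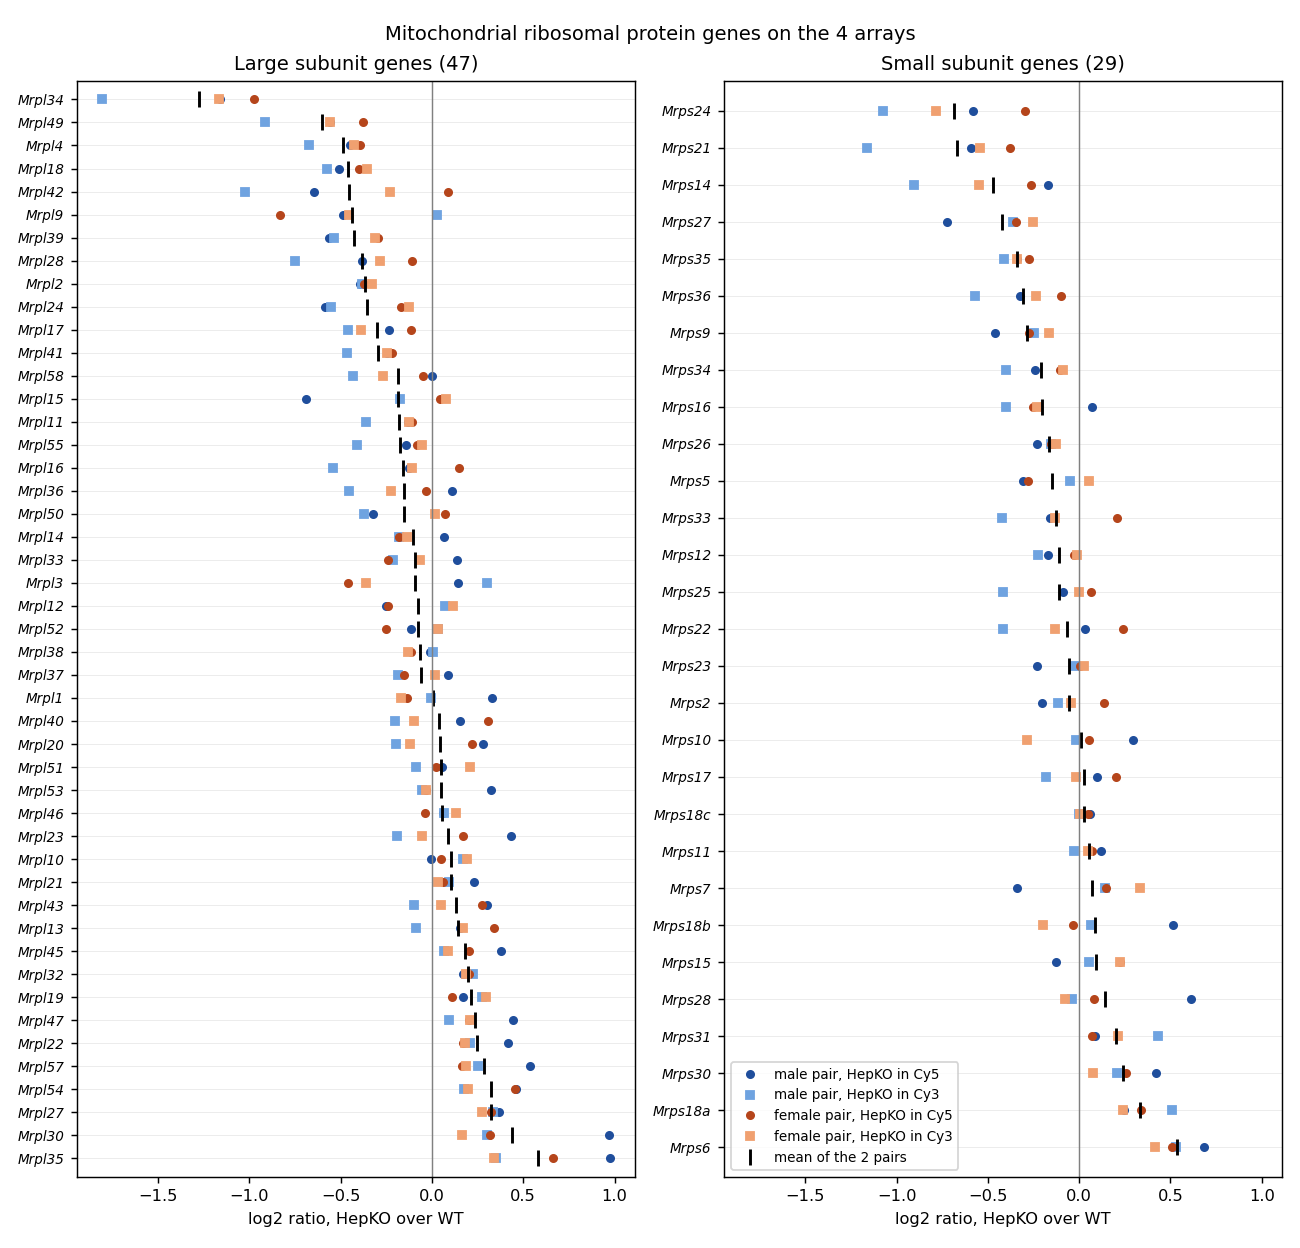
Log2 ratio of HepKO over WT for each of the 47 large-subunit (left) and 29 small-subunit (right) genes, ordered by their mean. Circles and squares are the 4 arrays, and black bars are the mean of the 2 pairs. Mrpl34 lies below -0.97 on all 4 arrays, while most other members straddle or lie near 0.

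Mrpl34 encodes a small, basic protein of the large subunit that is related to a bacterial ribosomal protein. Its ratios were -1.16, -1.81, -0.98 and -1.16. All 4 arrays were thus low, with the male pair with HepKO in Cy3 the lowest. Its normalized log2 intensity was 11.24, 11.67, 11.36 and 11.53 in WT and 10.07, 9.87, 10.39 and 10.36 in HepKO. The levels of the genotypes did not overlap. Here and below such non-overlap is a description, as its share over all named genes was not counted and the 4 levels of a genotype come from 2 pairs. The mean ratio was -1.28 ± 0.17 (95% interval -1.76 to -0.80, n = 2 pairs, limma adjusted p = 0.0246), a level 2.42-fold higher in WT, and 1.68% of all named genes had a lower ratio. The array holds 1 probe for Mrpl34. The call was lost when the background model was fitted on all spots (-1.25, adjusted p = 0.116) and when dim probes were kept (adjusted p = 0.0820), settings under which no named gene passed.

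The promoter of Mrpl34 is shown because this is the member that passed the test and because its letters hold a motif in a number seen in few promoters. The sequences are from RefSeq (GRCm38.p6), which held a promoter for 67 of the 76 members. Mrpl34 is on the plus strand, and its bases from 250 before to 1 before the start site are chr8:71464676-71464925. Capitals mark the letters ACTACA and TCCC with the 2 free bases between them, known as the binding element of the transcription factors ZNF143 and THAP11. The motif was chosen after this sequence had been seen. The other members that hold it are shown with 24 bases on either side of their matches: Mrpl50 (chr4:49521130-49521250, minus strand), Mrpl42 (chr10:95501959-95502018, minus strand), Mrpl24 (chr3:87919383-87919442, plus strand) and Mrps22 (chr9:98601693-98601752, minus strand).
Mrpl34: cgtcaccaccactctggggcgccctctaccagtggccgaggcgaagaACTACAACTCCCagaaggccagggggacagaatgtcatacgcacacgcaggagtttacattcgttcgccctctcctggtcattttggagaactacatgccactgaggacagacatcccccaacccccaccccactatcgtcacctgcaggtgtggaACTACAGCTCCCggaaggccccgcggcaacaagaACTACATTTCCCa
Mrpl50: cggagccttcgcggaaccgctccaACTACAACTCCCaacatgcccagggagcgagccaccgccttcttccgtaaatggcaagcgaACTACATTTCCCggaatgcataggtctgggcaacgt
Mrpl42: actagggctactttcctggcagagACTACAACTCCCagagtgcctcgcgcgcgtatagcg
Mrpl24: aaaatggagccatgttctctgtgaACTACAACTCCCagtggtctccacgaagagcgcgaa
Mrps22: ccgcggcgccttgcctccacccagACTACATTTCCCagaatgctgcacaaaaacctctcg

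In Mrpl34 the motif begins 203, 47 and 13 bases before the start site, in the same orientation each time. A GABP match (CCGGAAG) begins 37 bases before the start site and shares its first bases with the end of the middle match. The search covered both strands from 250 bases before to 50 after the start site. The motif was present in 5 of 67 members (7.5%) and in 2.08% of 27025 mouse genes with a promoter in the same source. Mrpl34, in whose promoter the motif was first seen, is counted among these 5, so its own match was fixed by the choice. The shares are a description without a test. These 27025 include genes not measured here, so the 2.08% is not a share of measured genes. Of the named genes measured that had a promoter, the nearer background for the members, 419 held the motif and 8841 did not. Of all 27025 genes, 3 held the motif at least 3 times in a promoter. Its carriers other than Mrpl34 did not pass the test. The ratios were -0.45 ± 0.24 for Mrpl42, -0.36 ± 0.18 for Mrpl24, -0.15 ± 0.17 for Mrpl50 and -0.07 ± 0.15 for Mrps22. A match describes the letters and is not a measured binding site.

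Other motifs common in promoters of genes for mitochondrial proteins were searched in the same windows. GCGC and TGCGC with 1 free base between them, the element of nuclear respiratory factor NRF1, was present in 12 of 67 members (17.9%) and in 5.19% of all genes, a match that reads the same on both strands counting once. CCGGAAG, an element of GABP (also called NRF2), was present in 25 (37.3%; 9.93% of all), and AAGATGG, an element of YY1, in 13 (19.4%; 7.28% of all). GGGCGG, an element of SP1, was present in 33 (49.3%; 38.2% of all) and CCAAT in 27 (40.3%; 41.06% of all). The shares of all genes include genes not measured here, and shares among measured genes were not taken for these motifs. By subunit, 14 of 41 large-subunit and 11 of 26 small-subunit genes held the GABP letters, and 9 of 41 and 3 of 26 those of NRF1. The median ratio of members with the GABP letters was -0.08 and of those without it -0.07. For NRF1 the medians were -0.14 and -0.06.

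In the large subunit 13 of 47 genes were below 0 on all 4 arrays and 11 above 0 on all 4. Over both subunits 38 of 76 members had the same sign on all 4 arrays, against 64.3% of all named genes. Of these 23 (30.3%) were below 0 and 15 (19.7%) above, against 25% and 39.4%. After Mrpl34 the lowest large-subunit gene with the same sign on all arrays was Mrpl49, which is specific to mitochondria. It read -0.56, -0.92, -0.38 and -0.56 (mean -0.60 ± 0.16, limma adjusted p = 0.0763). Levels of HepKO and WT did not overlap, and the other probes of Mrpl49 gave means of -0.59 and -0.28. All 3 probes were below 0 on every array.

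Mrpl4, a relative of a bacterial protein that lines the exit tunnel, read -0.45, -0.68, -0.39 and -0.43 (mean -0.49 ± 0.15, limma adjusted p = 0.0988). Mrpl18, a relative of the bacterial protein that binds the smallest ribosomal RNA in the central protuberance, read -0.51, -0.58, -0.40 and -0.36 (mean -0.46 ± 0.15, limma adjusted p = 0.110), and its 3 probes gave means from -0.64 to -0.45. Mrpl39, a mitochondria-specific protein near the tunnel exit, read -0.56, -0.54, -0.30 and -0.31 (mean -0.43 ± 0.15, limma adjusted p = 0.135). These 3 genes were low on all 4 arrays by similar amounts without passing the threshold.

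At the other end, Mrpl35, a relative of a bacterial large-subunit protein, read 0.97, 0.35, 0.66 and 0.34 on its brightest probe (mean 0.58 ± 0.15, limma adjusted p = 0.0721), higher with HepKO in Cy5 than in Cy3 in both pairs. Its other probe read -0.56, -0.66, 0.25 and -0.20 (mean -0.29 ± 0.20). The probes of Mrpl35 thus differ in sign, and no direction is given for the gene. Mrpl30, also a bacterial relative, read 0.97, 0.30, 0.32 and 0.16 (mean 0.44 ± 0.17, limma adjusted p = 0.156), with 1 array well above the other 3. Mrpl27, which lies near the peptidyl transferase centre, read 0.37, 0.33, 0.32 and 0.27, the most even of the high genes (mean 0.33 ± 0.14, limma adjusted p = 0.187). Mrpl54, specific to mitochondria, read 0.46, 0.17, 0.46 and 0.20 (mean 0.32 ± 0.14, limma adjusted p = 0.189). Mrpl57, also specific to mitochondria, had a mean of 0.28 ± 0.15 on its brightest probe and -0.27 ± 0.13 on the other, which was well above background on 2 of 4 arrays in HepKO. Its second probe was below 0 on all 4 arrays while the first was above 0 on all 4. With each array centred on its median in place of loess, Mrpl27 was 0.14 (limma adjusted p = 0.579) and the brightest probe of Mrpl57 was 0.12 (limma adjusted p = 0.613), and Mrpl30 and Mrpl54 were 0.23 and 0.19 with HepKO in Cy3 alone. Without male pair replicate 1 Mrpl30 was 0.27.

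By role, the 29 large-subunit genes with bacterial relatives had a median of -0.09 and the 17 measured mitochondria-specific ones -0.06. Mrpl55 was left unclassified. The stalk, on which translation factors land, held Mrpl11 (-0.18), Mrpl12 (-0.08), Mrpl53 (0.05) and Mrpl10 (0.10), of which none passed the test. Around the exit tunnel Mrpl39 (-0.43), Mrpl24 (-0.36) and Mrpl17 (-0.30) were below 0 on all 4 arrays. There Mrpl45 (0.18), Mrpl47 (0.24) and Mrpl22 (0.24) were above 0 on all 4, and Mrpl23 (0.09) was mixed. None of these 7 passed the test. Mrpl4 (-0.49), given above as a relative of a protein that lines the tunnel, was not in this list and was also below 0 on all 4 arrays. In the central protuberance the means ran from -0.46 for Mrpl18 to 0.33 for Mrpl27, with Mrpl38, Mrpl40 and Mrpl46 between -0.06 and 0.06. Neighbouring proteins of the ribosome thus had ratios of either sign.

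**Figure D2:**
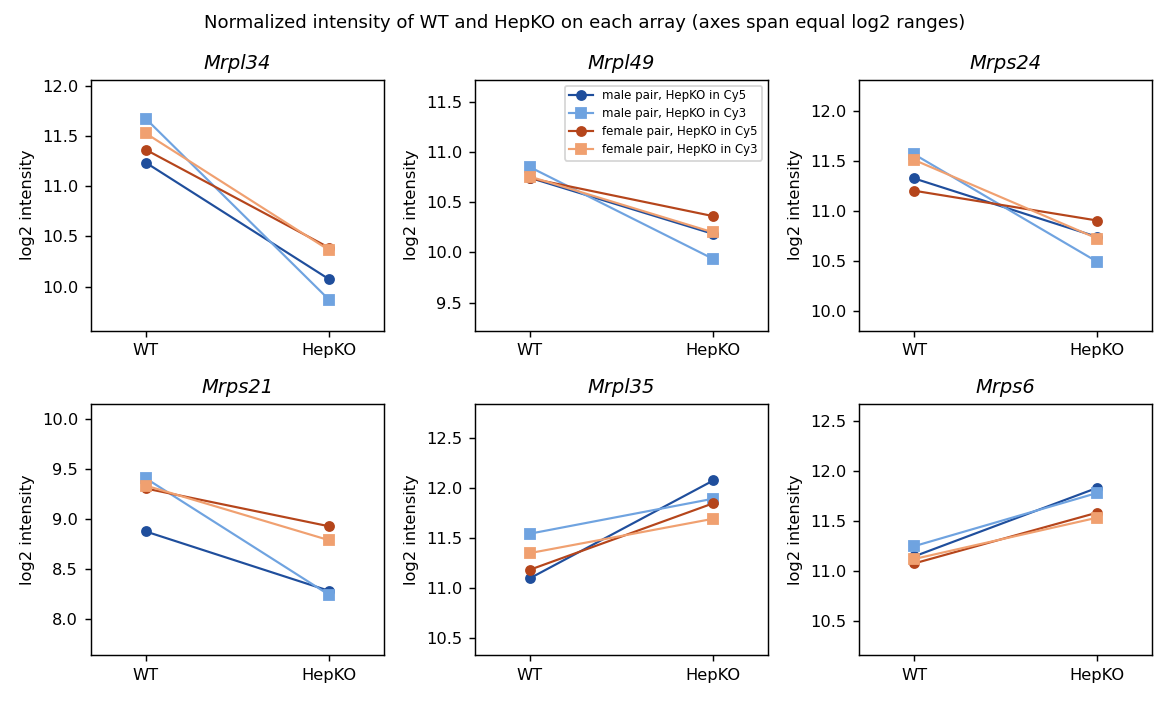
Normalized log2 intensity in WT and HepKO for 6 members, with a line for each of the 4 arrays. Each panel spans the same range of log2 values, and levels are not comparable between panels because each gene is read by its own probe. Mrpl34 has the steepest fall on all 4 arrays, and Mrpl35 and Mrps6 are above WT on all 4 by their brightest probes.

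In the small subunit no gene passed an adjusted p of 0.05 in limma, and 5 of 29 had an unadjusted p under 0.05. Here 10 genes (34.5%) were below 0 on all 4 arrays and 4 (13.8%) above, against 25% and 39.4% of all named genes. Mrps24, a relative of a bacterial protein at the entry of the messenger RNA channel, read -0.58, -1.07, -0.30 and -0.78. Its WT levels were 11.20 to 11.57 and its HepKO levels 10.49 to 10.91 on the log2 intensity scale, without overlap. The mean ratio was -0.68 ± 0.16 (95% interval -1.12 to -0.25, limma adjusted p = 0.0614), the smallest adjusted p among the 75 members that did not pass. Without female pair replicate 1 it passed (-0.81, adjusted p = 0.0490). Mrps21, a relative of a small bacterial protein, read -0.59, -1.16, -0.38 and -0.55 (mean -0.67 ± 0.17, limma adjusted p = 0.0774). Its lowest WT level, 8.88, lay just below its highest HepKO level, 8.93, so the levels overlapped across arrays although each array's ratio was below 0.

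Mrps14, a relative of a bacterial protein of the head of the subunit, read -0.17, -0.91, -0.27 and -0.55 (mean -0.47 ± 0.14, limma adjusted p = 0.103). In Mrps24, Mrps21 and Mrps14 the arrays with HepKO in Cy3 were lower than those with HepKO in Cy5 in both pairs. With the Cy3 arrays alone Mrps24 (-0.93, adjusted p = 0.0253), Mrps14 (-0.73, adjusted p = 0.0474) and Mrps21 (-0.85, adjusted p = 0.0499) passed in limma, with Mrpl34 and Mrpl49. Under that setting 2314 of 11498 named genes passed, 686 of them lower. With the Cy5 arrays alone Mrps24, Mrps14 and Mrps21 did not pass. The members that then passed were Mrpl34 (lower) and Mrpl35 (0.82, limma adjusted p = 0.0491), beside 1860 of 11500 named genes, 1404 of them higher. Over all kept probes no member probe was higher with the Cy5 arrays alone. A single dye orientation does not cancel a dye effect. Of the mitochondria-specific genes, Mrps27, which encodes a protein with pentatricopeptide repeats, a fold that binds RNA, read -0.73, -0.36, -0.35 and -0.25 (mean -0.42 ± 0.15, limma adjusted p = 0.137). Mrps35 read -0.34, -0.41, -0.27 and -0.34 (mean -0.34 ± 0.14, limma adjusted p = 0.172), with all 4 arrays close together. With each array centred on its median in place of loess the means were nearer 0, at -0.29 for Mrps14, -0.24 for Mrps27 and -0.20 for Mrps35 (limma adjusted p = 0.261, 0.364 and 0.416), and without male pair replicate 2 Mrps14 was -0.29.

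Only 4 small-subunit genes were above 0 on all 4 arrays. Mrps6, a relative of a bacterial protein of the platform, read 0.68, 0.53, 0.51 and 0.41 (mean 0.53 ± 0.15, limma adjusted p = 0.0832), with HepKO levels of 11.53 to 11.83 above WT levels of 11.08 to 11.25. Its second probe read 0.30, 0.31, 0.42 and 0.34. The 2 probes of Mrps6 thus pointed the same way on every array. Mrps31 read 0.09, 0.43, 0.07 and 0.21 (mean 0.20 ± 0.14, limma adjusted p = 0.369), and 0.12 with median centring or without male pair replicate 2. The other 2, Mrps18a and Mrps30, carry small-subunit names, but their proteins sit in the large subunit. Mrps18a read 0.24, 0.51, 0.34 and 0.24 (mean 0.33 ± 0.14, limma adjusted p = 0.182) and Mrps30 read 0.42, 0.21, 0.26 and 0.07 (mean 0.24 ± 0.15, limma adjusted p = 0.304), and 0.16 with the Feature Extraction log ratios. The 18 small-subunit genes with bacterial relatives, Mrps18a among them, had a median of 0.02 (-0.07 in the male pair and -0.01 in the female pair). The 10 mitochondria-specific ones, Mrps30 among them, had a median of -0.12, with -0.22 in the male pair and 0.02 in the female pair. Of these 10 genes 8 were below 0, against 42.4% of all named genes. Mrps36 (-0.31 ± 0.16), left unclassified here, is now known as a subunit of the oxoglutarate dehydrogenase complex.

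The subunits were nearly level with each other. The median ratio of the large subunit was -0.08 and that of the small subunit -0.07, a difference of -0.01. By pair, large minus small was 0.13 in the male pair and -0.06 in the female pair, and by array it was 0.22, -0.02, -0.08 and 0.02. The sign thus changed between pairs and between arrays of a pair. With Mrps18a and Mrps30 counted in the large subunit the difference of the medians was 0.05. With 2 pairs an exact sign test over pairs cannot go below 0.5, so no p is given. Both medians were below that of all named genes under each setting tried, by 0.08 to 0.26 on the log2 scale, but the small-subunit median itself rose to 0.01 when each array was centred on its median in place of loess.

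**Figure D3:**
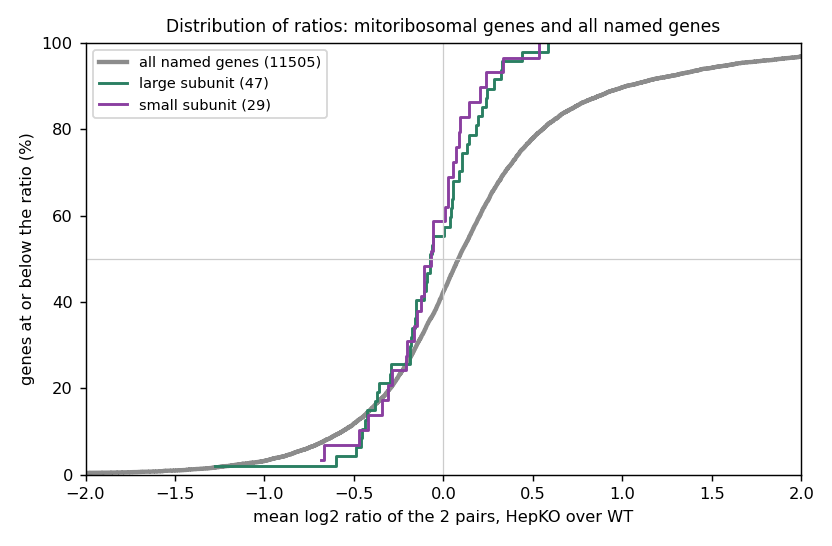
Cumulative share of genes against the mean log2 ratio of HepKO over WT for the 47 large-subunit genes, the 29 small-subunit genes and all 11505 named genes, drawn from -2 to 2. The curves of the subunits run together and are steeper than that of all named genes, with medians of -0.08 and -0.07 against 0.08.

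In 6 members both arrays of a pair lay on one side of 0 and both arrays of the other pair on the other side by the brightest probe, as in 8.45% of all named genes. Across the 76 genes the Pearson correlation of male and female ratios was 0.79 (all named genes 0.84). The Spearman correlation was 0.74 (all named genes 0.80). Genes are not independent, the points of a pair share their RNA extracts, and the values are a description without a test. The change was larger in size in the male pair for 56 of the 76 members. The array with HepKO in Cy3 of the male pair gave the lowest ratio of the 4 for 40 members. Its median over members was -0.16, against -0.06 to -0.0033 on the other arrays. The medians of all named genes on the 4 arrays were 0.08, 0.10, 0.09 and 0.09. Between the dye orientations of the male pair 53 of 76 members read higher with HepKO in Cy5, by a median of 0.23. In the female pair 46 did, by a median of 0.03. The counts of members by pair, array and dye were not taken over all named genes, so they are not read as traits of the members. Averaging the orientations cancels an additive dye effect within each pair.

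**Figure D4:**
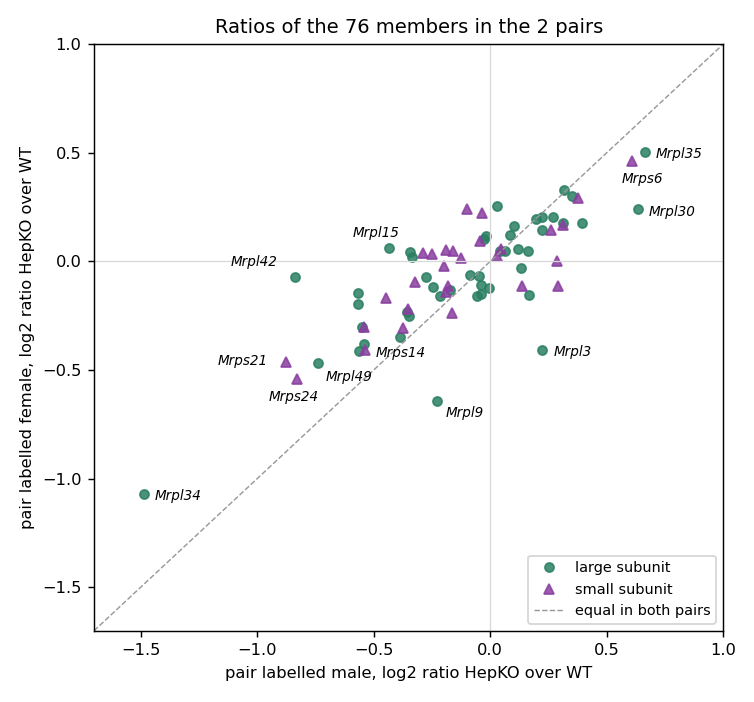
Ratio in the pair labelled female against that in the pair labelled male for the 76 members, circles for the large and triangles for the small subunit. The dashed line marks equal ratios. Mrpl34 stands apart at the lower left, and Mrpl3 on its brightest probe is above 0 in the male pair and below 0 in the female pair, which its other 2 probes are not.

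Of the 76 members 25 had 2 or 3 probes that were kept, and in 6 of them the probes differed in the sign of the mean. They were Mrpl35 and Mrpl57, given above, and Mrpl1, Mrpl40, Mrps7 and Mrps18c. The brightest probe of Mrpl1, a relative of a bacterial protein of the ribosome's mobile arm, had a mean of 0.01 ± 0.15. The others gave -0.08 ± 0.13 and -0.65 ± 0.16, the last of these reading -0.95, -0.73, -0.50 and -0.44. Its limma adjusted p over all kept probes was 0.0794. For Mrpl40 the 3 probe means lay between -0.01 and 0.06, for Mrps18c the 2 lay at 0.03 and -0.09, and for Mrps7 at 0.07 and -0.20. These spans are within the SEs for Mrpl40 and larger than them for Mrpl1. Over all kept probes 10.1% passed, 2.9% lower, and of the 108 kept member probes 1 did, that of Mrpl34. The 2 member probes not kept were second probes of Mrpl41 and Mrps25.

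The other genes of mitochondrial translation were read from lists of the same kind, and none of them passed the test. Of 5 measured mitoribosomal proteins with other names, Chchd1 was lowest (-0.17 ± 0.14) and Gadd45gip1 highest (0.25 ± 0.14), with Dap3, the GTP-binding protein of the small subunit, at 0.00 ± 0.15. The median was 0.00. The 14 genes listed as translation factors had a median of -0.35. Of these 9 (64.3%) were below 0 on all 4 arrays and none above, against 25% and 39.4% of all named genes. Guf1, a GTPase related to an elongation factor, was lowest and read -1.33, -1.05, -0.56 and -0.48 (mean -0.86 ± 0.22, limma adjusted p = 0.0727). All arrays of Guf1 were low, with the male pair lower than the female pair. The highest was Slirp, an RNA-binding partner of Lrpprc (0.21 ± 0.15, limma adjusted p = 0.359). The 6 factors with an unadjusted p under 0.05 are 42.9% of the list, against 36.3% of all named genes.

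Of 18 measured genes for mitoribosome assembly, 9 were below 0 on all 4 arrays and 3 above. Their median was -0.10. Mrm1, a methyltransferase for the large ribosomal RNA, was lowest and read -0.31, -0.78, -0.26 and -0.60 (mean -0.49 ± 0.14, limma adjusted p = 0.0965). Ddx28, a DEAD-box helicase of large-subunit assembly, was highest and read 1.10, 1.39, 0.24 and 0.42 (mean 0.79 ± 0.27, limma adjusted p = 0.121). Its ratio was above 0 on all arrays, and the male pair was higher than the female pair by more than the dye orientations of a pair differed. The 80 cytosolic ribosomal protein genes had a median of 0.13 with none passing. By pair this median was 0.29 (male) and -0.04 (female). The 79 oxidative phosphorylation subunits had a median of -0.24 (male -0.25, female -0.18), with 1 higher (Cox6a2) and 2 lower (Cox6c, Cox7a1). These 3, named after their values were seen, are subunits or isoforms of cytochrome c oxidase.

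**Figure D5:**
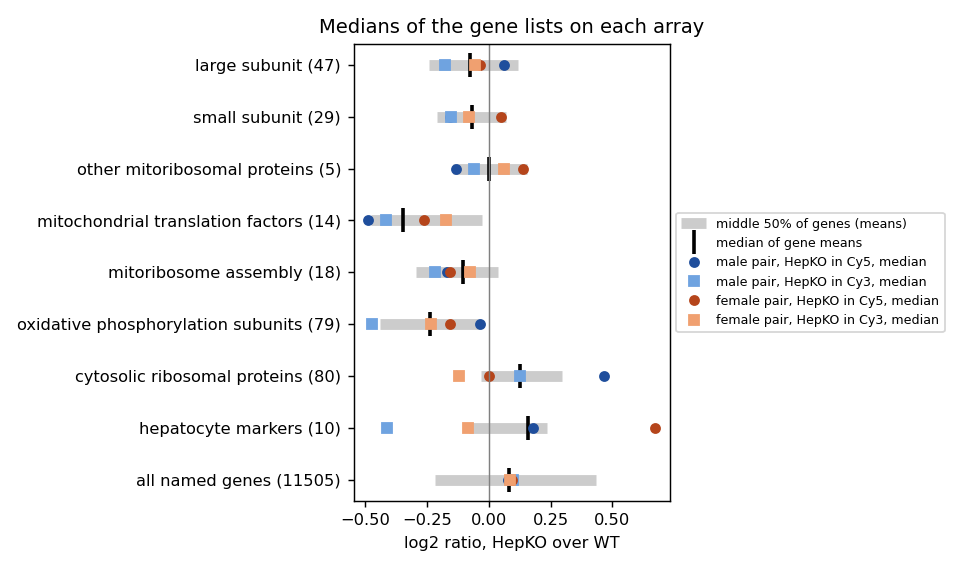
Median log2 ratio of HepKO over WT of each gene list on each array (circles and squares), the median of the gene means (black bar) and the middle 50% of gene means (grey). The number of measured genes is in brackets. The large and small subunit sit between -0.18 and 0.06 on all arrays, and the translation factors lie below them on every array.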

How the data were processed

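RNA of HepKO and WT hepatocytes was hybridised on 4 two-colour arrays, 2 per pair with the dyes exchanged. Agilent Feature Extraction 10.2.1.3 produced the spot values, per the file headers. The deposited intensity values used here are each spot's mean signal and the median of its local background. The deposited log10 ratios of red over green, which the scanner software had corrected for background and dye, and the series' value table of log10 ratios served as alternatives. The value table matched them with a correlation of at least 0.999999 in size over 43379 spots, and its median was 0. Further steps of the authors are not given in the sources used here.

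Spots with outlier flags (178 to 260 per array) were left out before the normexp fit (offset 50), and loess followed within each array with 1639 control spots at weight 0, in limma 3.58.1 under R 4.3.3. That flagged spots leave before the fit was settled with results known. Ratios were turned to HepKO over WT, and both orientations were averaged per pair. A probe was kept (22842 of 41174) if well above background on both arrays of a pair in a genotype. RefSeq accessions of assembly GRCm38.p6 named 22951 probes (55.7%). Each gene was read from its brightest kept probe. The test was limma with an intercept and moderated variances (1 residual degree of freedom and 3.11 borrowed) and Benjamini-Hochberg adjustment over 11505 named genes, with a threshold of 0.05. The pairing lies within each ratio. The model was tested on simulated data.

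Named genes were members past the threshold, the 5 lowest and 5 highest of each subunit with the same sign on 4 arrays, members whose probes differ in sign, Mrps18a, Mrps30, members of the other translation lists that passed and their extremes, and Pnpt1. The members, lists and tests were chosen with earlier results of these data known. Alternatives were the background fit, the other ratios, median centring, dim-probe filters, the mean of a gene's probes, single dye orientations, subunit assignment and leaving out each array. Leaving out Mrps36 was added after seeing the data.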

Additional observations from a re-analysis of the deposited data

Results flagged for a closer look

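In 6 members both arrays of the male pair lay on one side of 0 and both arrays of the female pair on the other, by the brightest probe of the gene. As each pair is 1 replicate, these differences were not tested, and 8.45% of all named genes showed such a pattern, beside 7.89% of the members. The male minus female difference was 0.63 for Mrpl3 (0.22 against -0.41), a protein of the large-subunit core. On the other 2 kept probes of Mrpl3 the male pair did not lie above 0: they read -0.28, 0.00, -0.46 and -0.29, and -0.06, -0.36, -0.02 and -0.33. It was -0.49 for Mrpl15 (-0.43 against 0.06), 0.41 for Mrps18b (0.29 against -0.12), -0.39 for Mrpl50 (-0.35 against 0.04), -0.29 for Mrps25 (-0.25 against 0.03) and -0.14 for Mrps23 (-0.13 against 0.01). The second kept probe of Mrpl50 was below 0 on all 4 arrays (-0.39, -0.26, -0.01 and -0.09), and that of Mrps23 read -0.26, 0.04, -0.11 and 0.07, so neither showed opposite signs between the pairs. The other 3 genes had 1 kept probe. Between the pairs, age, labelled sex and slide cannot be told apart.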

How the results depend on the processing

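Mrpl34 kept its direction under all 13 alternatives and passed the threshold under the 11 other than the background fit on all spots and the absence of a filter on dim probes. Under each of these the number of members passed fell to 0, by gene and by probe, as did that of all named genes (main 1797). The smallest adjusted p was 0.0735 of 11505 genes with 3010 at an unadjusted p under 0.05, and 0.0691 of 16358 genes with 4638. With HepKO in Cy3 alone 2 large-subunit and 3 small-subunit genes and 4 probes passed, and with HepKO in Cy5 alone 2 large-subunit genes. Of all named genes 2314 of 11498 passed with HepKO in Cy3 alone and 1860 of 11500 with HepKO in Cy5 alone. Under the Feature Extraction log ratios, and likewise under the value table, the count was 2 probes. Leaving out 1 array gave 1 large-subunit gene each time, 0 to 1 small-subunit genes, 1 to 2 probes and 1132 to 2157 named genes (1132 without male pair replicate 2). The large-subunit median, -0.08 as reported, was -0.11 with the Feature Extraction ratios or the value table, -0.10 with the mean of all kept probes, -0.0245 with HepKO in Cy5 alone and -0.102 to -0.0105 with 1 array left out. The small-subunit median, -0.07 as reported, was -0.16 with the Feature Extraction ratios or the value table, -0.12 with HepKO in Cy3 alone, -0.11 with the mean of all kept probes, -0.03 with HepKO in Cy5 alone, 0.01 with median centring and -0.10 to -0.04 with 1 array left out. The difference of the medians ranged from -0.06 to 0.05 with 1 array left out and was -0.10 with median centring. Members near 0 changed sign. Mrpl1 was -0.00703 with the fit on all spots, -0.0799 with the Feature Extraction ratios or the value table, -0.243 with the mean of its probes, -0.0868 with HepKO in Cy3 alone and -0.0782 to 0.0885 with 1 array left out. Mrpl40 was -0.0639 with the Feature Extraction ratios, -0.0641 with the value table, -0.152 with HepKO in Cy3 alone and -0.0628 to 0.140 with 1 array left out. Mrps18c was -0.00117 with the fit on all spots, -0.0725 with the Feature Extraction ratios, -0.0724 with the value table and -0.0318 with the mean of its probes. Mrps7 was -0.0664 with the mean of its probes, -0.0965 with HepKO in Cy5 alone and -0.0509 to 0.192 with 1 array left out. The cause was not tested. The pairing already lies within each ratio, so no further paired analysis was made. The number of arrays limits the precision.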

Other observations

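The motif of ACTACA and TCCC with 2 free bases between them was also looked up in the promoters of all named genes measured. Among 419 genes that hold it the median ratio was -0.01, with 12 lower (2.86%) and 23 higher (5.49%) at an adjusted p under 0.05 in limma. Among 8841 genes without it the median was 0.08, with 316 lower (3.57%) and 1042 higher (11.79%). Apart from Mrpl34, the genes with a promoter that holds it at least 3 times were Dffa (-0.14 ± 0.17) and Zfp112 (-0.14 ± 0.15), and neither passed. The motif was chosen after the Mrpl34 promoter had been seen, and these values carry no test.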
